A study of Mus musculus with 12 samples.

Results

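The genes described here encode the proteasome: the subunits of its core and cap, its activators and the chaperones that put it together. Members were the genes whose symbol is Psma, Psmb, Psmc, Psmd, Psme or Psmg followed by a digit, without the immunoproteasome subunits Psmb8, Psmb9 and Psmb10. They numbered 45 of the 18193 genes on the array. Each was read by 1 probe set, the one with the highest mean over the 12 arrays among probe sets tied to a single gene. The mean level chose the probe set and the difference between the cell fractions did not, so levels are given as a description. Of the 45 genes, 20 had 1 such probe set and 25 had several. Psmc3ip, a partner in meiotic recombination, and Psme3ip1, a protein that binds the activator Psme3, carry matching symbols but are not proteasome subunits. The activator Psme2 was not a member because its probe set is shared with its near-identical copy Psme2b.

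The proteasome degrades proteins tagged with ubiquitin. Its core is a barrel of stacked rings, with alpha subunits forming the gates at both ends and beta subunits in the middle, among which Psmb5, Psmb6 and Psmb7 carry the cutting sites. A cap of ATPases (Psmc) and non-ATPase subunits (Psmd) binds ubiquitin chains, removes them, unfolds the protein and feeds it into the barrel. Every nucleated cell needs it, and its genes are known to be switched on together by the transcription factor Nfe2l1 when proteasome capacity falls short.

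The samples were keratinocytes from the skin of mice of the strain given as C57 DBA, parted by magnetic sorting (MACS) into CD34+ cells, the fraction that holds hair follicle bulge cells, and CD34- cells, the remaining keratinocytes. The labels give no treatment, engineered allele or age for either fraction. Cells were isolated 3 times, with 6 or more mice pooled each time, and every RNA went onto 2 Affymetrix arrays, giving 6 CD34+ and 6 CD34- arrays. An n of 6 is therefore a number of arrays, read from 3 RNAs. Which arrays came from 1 RNA is not in the labels, so every array entered the test as a sample of its own, which makes the p-values too small where such arrays resemble each other.

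Values are log2 RMA expression values, and a log2 fold change is the CD34+ mean minus the CD34- mean. A gene passed where limma's adjusted p was under 0.05 over all 18193 genes. Keratinocyte markers were high in both fractions. The mean level of 6 markers per array was 11.85 to 12.60 in CD34+ and 12.47 to 12.95 in CD34- cells. Of these 6, 3 were lower in CD34+ cells, Krt14 (-1.37), Krt5 (-1.04) and Trp63 (-0.42), and 0 were higher. Krt15, counted with the keratinocyte and not the bulge markers, did not pass (-0.29, limma adjusted p = 0.106). The 6 genes taken as bulge markers, Cd34 among them, were all higher in CD34+ cells. CD34+ arrays 1, 3 and 5 stood apart: the SD of their values was 2.07, 1.92 and 2.02, against 2.19 to 2.32 in the remaining 9 arrays. RNA quality, read as the log2 excess of Actb's 3' over its 5' control probe set, was 3.95 to 5.65 in CD34+ and 1.82 to 3.24 in CD34- arrays, where a larger excess goes with more degraded RNA. All 7 T cell markers were lower in CD34+ cells (mean level per array 5.33 to 6.44 in CD34+ and 7.26 to 8.32 in CD34- cells), as were 4 of 6 Langerhans and myeloid markers (5.88 to 6.18 and 6.49 to 7.28). Of 6 fibroblast markers 4 were higher (4.92 to 6.76 in CD34+ and 3.54 to 4.77 in CD34- cells). The part of these differences in the results was not tested. The Actb excess did not overlap between the fractions, nor did that of Gapdh (3.66 to 4.63 in CD34+ and 3.10 to 3.57 in CD34- arrays). RNA quality and fraction therefore cannot be told apart here. In mixed cells, fewer cells of a type and less RNA per cell cannot be told apart either.

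Of the 45 members 19 fell in CD34+ cells, 0 rose and 26 did not pass (limma, adjusted p under 0.05). The share that fell was 42.2%, against 18.1% of all genes tested, and the share that rose was 0, against 7.99% of all genes. Of the 45 log2 fold changes 39 were negative. The median was -0.39, against 0.040 over all genes. Leaving out Psmc3ip and Psme3ip1, 18 of 43 genes fell and the median was again -0.39. The falls were moderate: the level in CD34- cells was 1.43 to 2.59 times that in CD34+ cells, and 5 of the 19 genes differed by a factor of 2 or more. For 10 members the arrays of the fractions did not overlap, and all 10 were lower in CD34+ cells (22.2% of members, against 8.77% of all genes).

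**Figure D1:**
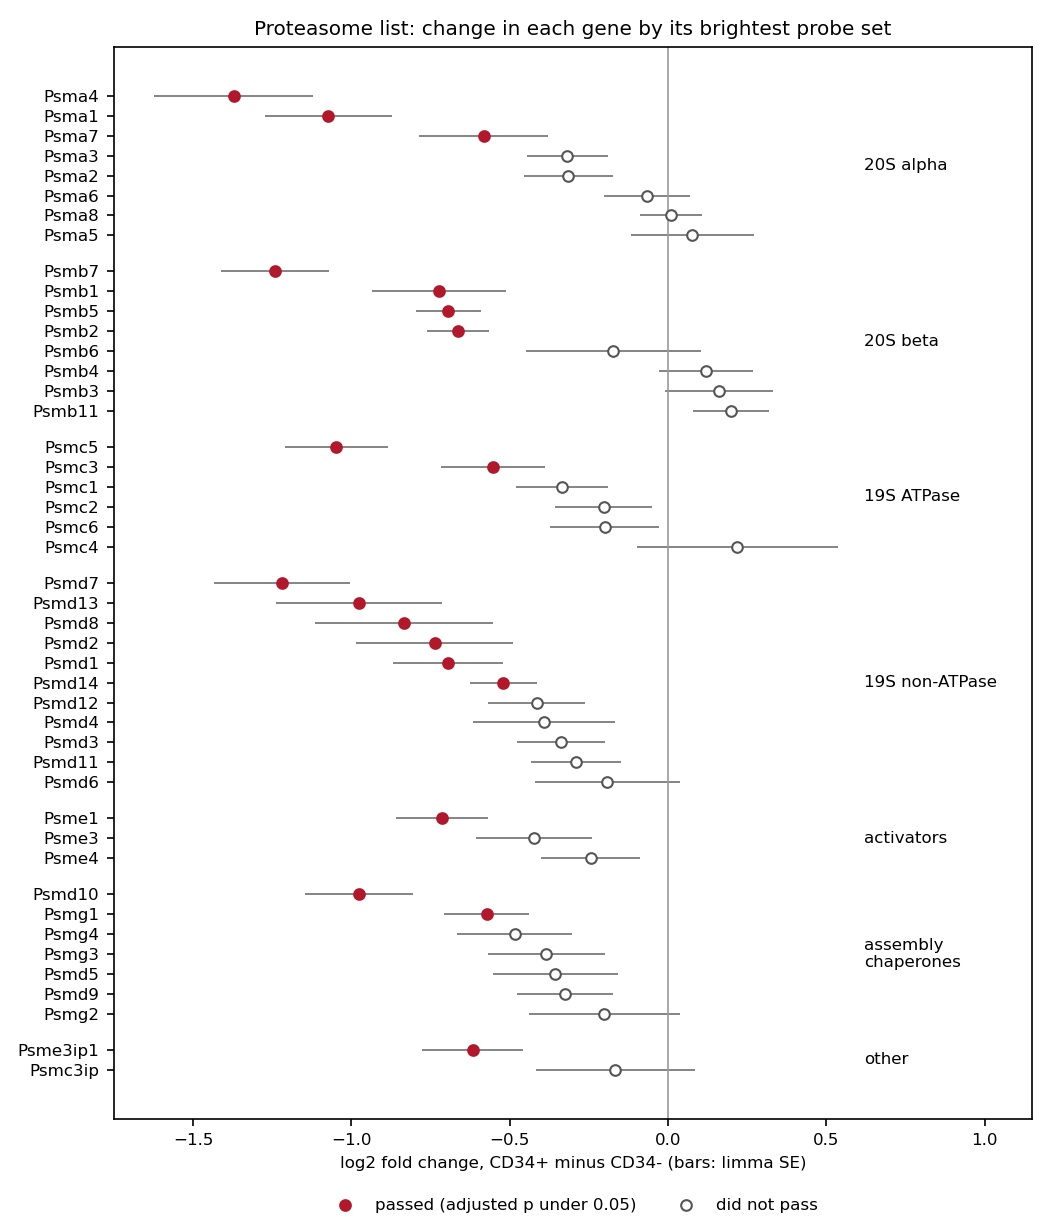
Log2 fold change (CD34+ minus CD34-) of each of the 45 genes with limma's standard error, ordered by role from the alpha ring down to symbols that are not subunits. Filled points passed (19 genes, all lower in CD34+ cells) and open points did not (26 genes). Values ran from -1.37 for Psma4 to 0.22 for Psmc4.

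Part of this pattern followed the arrays. The median difference of the 45 members from their CD34- means was -0.53, -0.82 and -0.68 in CD34+ arrays 1, 3 and 5, against -0.25, -0.0037 and -0.32 in CD34+ arrays 2, 4 and 6. The 6 CD34- arrays lay between -0.14 and 0.15. In CD34+ arrays 3 and 5, 43 members each were below their CD34- mean, and in CD34+ array 4 the number was 23. Without CD34+ arrays 1, 3 and 5, 13 members fell and 2 rose (28.9% and 4.44%, against 10.4% and 8.81% of all genes), with a median of -0.18. Those that fell were 2 alpha and 3 beta subunits, 1 ATPase, 3 non-ATPase subunits, 2 chaperones and 2 activators. Of the 19 genes, 12 were called lower again. Psma7 (-0.17), Psmb1 (-0.36), Psmc3 (-0.29), Psmd2 (-0.22), Psmd8 (-0.19), Psmd13 (-0.52) and Psme3ip1 (-0.28) were not. After a further quantile normalization, which gives every array the same spread, 13 members fell and 3 rose (28.9% and 6.67%, against 13.7% and 11.5% of all genes), with a median of -0.13. The calls lost there were those of Psma7 (-0.28), Psmb1 (-0.44), Psmb2 (-0.37), Psmc3 (-0.25), Psmd1 (-0.41) and Psmd8 (-0.54). Centring each array on its median gave 24 lower and 0 higher members (53.3% lower, against 20.9% lower and 4.95% higher among all genes).

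**Figure D2:**
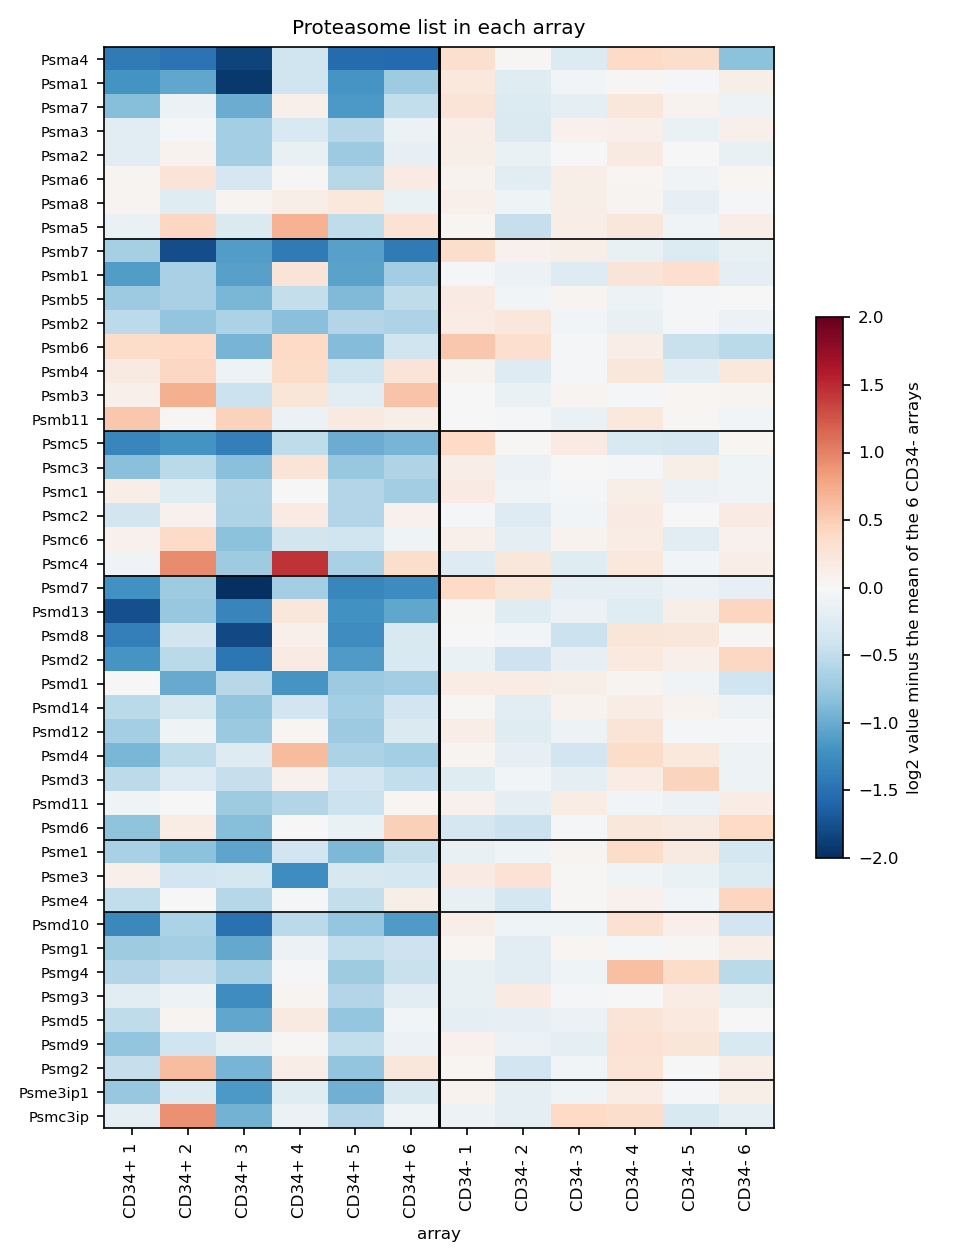
Log2 value of each gene in each array minus the mean of the 6 CD34- arrays, with CD34+ arrays on the left and genes grouped by role. CD34+ arrays 3 and 5 were low for nearly all genes (43 of 45 below the CD34- mean) and CD34+ array 4 for 23. For 10 genes all 6 CD34+ arrays lay below every CD34- array, Psmb7, Psmb5, Psmc5, Psmd7 and Psmd10 among them.

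Most members are strongly expressed, and strongly expressed genes were called lower in CD34+ cells more often than all genes were. Of the 32 members with a mean of 8 or more over the 12 arrays, a limit chosen after the data were seen, 15 fell and 0 rose (46.9% lower), with a median of -0.40. Among all 3298 genes at this level 31.2% fell, 4.67% rose and the median was -0.27. After a further quantile normalization 9 of the 32 fell and 3 rose (28.1% lower), against 20.4% lower and 19.3% higher among the 3298 genes. Without CD34+ arrays 1, 3 and 5 the number was again 9, against 15.9% of the 3298 genes. With only the genes of mean 4 or more tested, 44.2% of 43 members and 27.3% of 12218 genes fell. The difference between these shares was not tested.

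The alpha ring, which forms the gate of the core, had 3 of 8 genes lower and 0 higher, with a median of -0.32. For this and the later classes, the share lower over all genes was 18.1%, with a median of 0.040. Among genes with a mean of 8 or more it was 31.2%, with a median of -0.27. Psma4 had the largest fall of the whole list. Its lowest, median and highest values were 7.56, 7.90 and 9.02 in CD34+ arrays and 8.59, 9.58 and 9.81 in CD34- arrays. The fractions overlapped, because CD34+ array 4 (9.02) lay above CD34- array 6 (8.59). It averaged 8.04 ± 0.50 in CD34+ arrays, against 9.41 ± 0.48 in CD34- arrays (SD, n = 6), and it fell by 1.37 (SE 0.25, limma adjusted p = 0.00128). Psma1 read 7.61, 8.43 and 9.13 in CD34+ arrays against 9.29, 9.53 and 9.74 in CD34- arrays, again as lowest, median and highest value. Its fractions did not overlap, and it fell by 1.07 (SE 0.20, limma adjusted p = 0.00152). Psma7 was at the edge of the threshold (-0.58, limma adjusted p = 0.0491) and kept the call only without CD34+ array 2 or 4 or CD34- array 2; without any other 1 of the 12 the adjusted p was 0.0611 to 0.107. Psma2 (-0.31), Psma3 (-0.32), Psma5 (0.078) and Psma6 (-0.066) did not pass. Psma2 and Psma3 passed without CD34+ array 2 (adjusted p = 0.0427 and 0.0422). Psma8, the alpha subunit known from testis, averaged 2.89 ± 0.16 in CD34+ cells and 2.88 ± 0.11 in CD34- cells, both below the brightest of the Trpn control probe sets (2.31 to 2.95), which mark the low end of the scale.

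The beta ring, which holds the cutting sites, had 4 of 8 genes lower and 0 higher, with a median of -0.42. Psmb7, the subunit with trypsin-like activity, had values of 7.96, 8.48 and 9.08 in CD34+ arrays against 9.47, 9.71 and 10.10 in CD34- arrays (lowest, median and highest). All CD34+ arrays were below all CD34- arrays. Psmb7 fell by 1.24 (SE 0.17, limma adjusted p = 0.000172), and the log2 fold change was -1.53 without CD34+ arrays 1, 3 and 5, so the difference was as large without them. Psmb5, the subunit with chymotrypsin-like activity and the main target of proteasome inhibitor drugs, had values of 9.33, 9.56 and 9.77 in CD34+ arrays against 10.15, 10.22 and 10.41 in CD34- arrays. The arrays of the fractions were again apart, by a smaller step (-0.69, SE 0.10, limma adjusted p = 0.000290). Psmb6, the subunit with caspase-like activity, read 8.0, 8.91 and 9.32 in CD34+ arrays and 8.39, 8.98 and 9.47 in CD34- arrays. Most arrays lay in a shared range, with CD34+ arrays 3 and 5 below every CD34- array and CD34- array 1 above every CD34+ array, and Psmb6 did not pass (-0.17, limma adjusted p = 0.650).

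Among the other beta subunits, Psmb2 read 7.85, 8.07 and 8.16 in CD34+ arrays and 8.53, 8.64 and 8.92 in CD34- arrays (lowest, median and highest). It fell without overlap of the arrays (-0.66, limma adjusted p = 0.000294), but did not pass after a further quantile normalization (-0.37, adjusted p = 0.136). Psmb1 read 8.30, 8.53 and 9.67 in CD34+ arrays and 9.15, 9.35 and 9.76 in CD34- arrays (lowest, median and highest), with CD34+ array 4 at the top of its group and within the CD34- range. It fell by 0.72 (limma adjusted p = 0.0225) but lost the call without CD34+ array 1 or 5 or CD34- array 4 or 5 (adjusted p 0.0533 to 0.0552). Psmb3 (0.16) and Psmb4 (0.12) did not pass with 12 arrays. Psmb3 passed as higher after a further quantile normalization (0.41, adjusted p = 0.0136) and without CD34+ arrays 1, 3 and 5 (0.51, adjusted p = 0.00868), and Psmb4 after the normalization alone (0.35, adjusted p = 0.00720), as did Psma5 (0.33, adjusted p = 0.0395). Psmb11, the beta subunit known from cortical cells of the thymus, did not pass, at 3.65 ± 0.25 in CD34+ arrays against 3.45 ± 0.11 in CD34- arrays (SD, n = 6).

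Promoters are shown for a pair of members that fell, since the genes are known to be controlled together. RefSeq windows (GRCm38.p6) of 300 bases, 250 before to 50 after the annotated start, were matched by symbol for 37 of the 45 members. Psmb5 lies on the minus strand at chr14:54617946-54618245 and Psma4 on the plus strand at chr9:54950609-54950908. Capitals mark TGACNNNGC, the core of the antioxidant response element that Nfe2l1 and Nfe2l2 bind, in Psmb5, and the E-box CACGTG in Psma4, while matches to TGANTCAGC and GCGGAAGT are not marked. Both are written 5′ to 3′ along the gene.
Psmb5: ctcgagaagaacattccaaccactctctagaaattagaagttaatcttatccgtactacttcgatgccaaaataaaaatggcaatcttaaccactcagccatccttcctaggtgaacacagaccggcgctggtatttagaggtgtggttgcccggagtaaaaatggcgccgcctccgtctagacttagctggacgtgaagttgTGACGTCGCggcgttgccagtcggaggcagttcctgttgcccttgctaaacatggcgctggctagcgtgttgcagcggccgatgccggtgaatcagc
Psma4: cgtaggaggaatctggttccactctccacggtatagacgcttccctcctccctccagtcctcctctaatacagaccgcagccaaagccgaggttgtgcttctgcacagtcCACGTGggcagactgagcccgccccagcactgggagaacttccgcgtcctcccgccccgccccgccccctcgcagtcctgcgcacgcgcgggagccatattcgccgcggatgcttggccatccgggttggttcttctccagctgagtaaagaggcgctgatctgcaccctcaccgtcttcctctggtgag

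The match in Psmb5 begins 47 bases before the start. The core TGACNNNGC, read on both strands, was found in 6 of the 37 members (16.2%) and in 14.0% of the 27025 genes of the table. The windows below carry it in capitals with up to 10 bases on each side, along the strand on which it reads TGACNNNGC, so that its variable middle can be compared.
Psmb5: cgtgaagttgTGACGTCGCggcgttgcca
Psmb6: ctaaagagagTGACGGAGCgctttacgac
Psme4: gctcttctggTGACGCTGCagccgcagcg
Psmd9: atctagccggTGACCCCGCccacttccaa
Psmc6: gagcaatgccTGACTTAGCtactggctgg
Psmd12: ggggcaaatgTGACACAGCaga
Of these 6 genes Psmb5 fell and the other 5 did not pass. The windows are at chr14:54618024-54618052 (minus strand) for Psmb5, chr11:70525338-70525366 (plus) for Psmb6, chr11:30771758-30771786 (minus) for Psme4, chr5:123228149-123228177 (plus) for Psmd9, chr14:45329587-45329615 (minus) for Psmc6 and chr11:107479278-107479299 (minus) for Psmd12. In all, 7 motifs were searched on both strands. The CCAAT box was found in 15 of 37 members (40.5%, against 41.1% of all genes), CACGTG in 4 (10.8% against 8.1%), the E2F motif TTTCGCGC in 0 (against 0.4%) and TGANTCAGC, a related form of the response element, in 1 (2.7% against 1.4%). The ETS motif CCGGAAGT was found in 9 (24.3% against 4.3%), of which 1 is among the 14 members with a window that fell and 8 are among the 23 that did not, and its variant GCGGAAGT in 3 that all fell, Psma4, Psmd13 and Psmd14 (8.1% against 2.1%). Such a match describes the letters of the window and shows no binding.

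**Figure D3:**
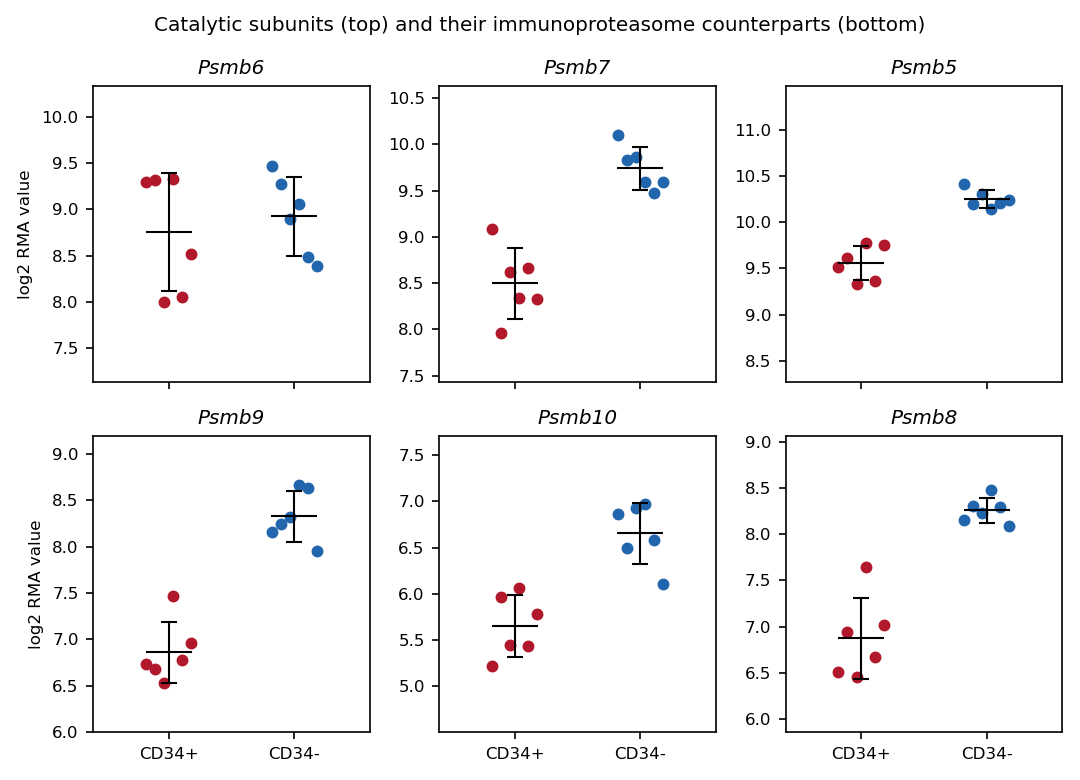
Log2 value in each array of the 3 catalytic subunits Psmb6, Psmb7 and Psmb5 (top) and the immunoproteasome subunits Psmb9, Psmb10 and Psmb8 that replace them (bottom), with means and SD over 6 arrays. Each panel spans the same range on its own log2 axis. The fractions overlap for Psmb6 and are apart for the other 5 genes.

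The immunoproteasome is a variant in which Psmb9, Psmb10 and Psmb8 take the places of Psmb6, Psmb7 and Psmb5. Immune cells express it, and interferon induces it in others. All 3 genes fell and none had overlapping arrays, where 18.1% of all genes fell and 8.77% fell without overlap. Psmb9 averaged 6.86 ± 0.33 in CD34+ cells against 8.33 ± 0.28 in CD34- cells (SD, n = 6), a difference of -1.47 (limma adjusted p = 3.90e-05). Psmb8 averaged 6.87 ± 0.44 in CD34+ cells against 8.26 ± 0.14 in CD34- cells (-1.39, limma adjusted p = 9.20e-05). Psmb10 averaged 5.65 ± 0.34 in CD34+ cells against 6.66 ± 0.33 in CD34- cells (-1.005, limma adjusted p = 0.00109). Without CD34+ arrays 1, 3 and 5 all 3 passed as lower, at -1.29, -1.06 and -0.72. The 3 pairs were then compared as log2 ratios within an array, a test chosen after the values were seen. A shift shared by all genes of an array cancels in such a ratio. The smaller spread of CD34+ arrays 1, 3 and 5 does not cancel between genes of unlike level. The splits below exchange arrays as if each were a separate sample, so their p-values are too small where arrays of 1 RNA resemble each other. With 3 RNAs against 3 an exact two-sided p could not fall below 0.1. Which RNAs CD34+ arrays 2, 4 and 6 came from is not in the labels. The ratio of Psmb9 to Psmb6 was -1.90 ± 0.58 in CD34+ and -0.60 ± 0.52 in CD34- arrays, a difference of -1.30 (two-sided exact permutation test over 924 splits, p = 0.00433, adjusted over the 3 pairs p = 0.00974). The ratio of Psmb8 to Psmb5 was lower as well (-2.68 ± 0.30 in CD34+ and -1.99 ± 0.21 in CD34- arrays, difference -0.69, exact permutation p = 0.00649, adjusted p = 0.00974). For both ratios the arrays overlapped. The difference for Psmb10 to Psmb7 was 0.24 (exact permutation p = 0.450), and this ratio spanned -3.87 to -1.999 in CD34+ and -3.49 to -2.62 in CD34- arrays. Without CD34+ arrays 1, 3 and 5 it was higher in CD34+ arrays by 0.81 (exact permutation p = 0.0119, the smallest that 84 splits can give, adjusted over the 3 pairs p = 0.0179), while those of Psmb9 to Psmb6 (-1.42) and Psmb8 to Psmb5 (-0.52) were lower (adjusted p = 0.0179 and 0.0357). With means of arrays 1-2, 3-4 and 5-6, pairs that the labels do not give, the ratios of Psmb9 to Psmb6 and of Psmb8 to Psmb5 were lower in all 3 CD34+ means than in all 3 CD34- means (exact permutation p = 0.1 in both cases, where 20 splits allow none smaller), and the p for Psmb10 to Psmb7 was 0.3. The T cell markers moved the same way (median log2 fold change -2.18), and their part in the fall of the immunoproteasome genes was not tested.

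The ATPase ring of the cap had 2 of 6 genes lower and 0 higher, with a median of -0.27. That is close to all genes with a mean of 8 or more, of which 31.2% were lower, with a median of -0.27. Psmc5 read 7.71, 7.99 and 8.57 in CD34+ arrays against 8.75, 9.11 and 9.48 in CD34- arrays (lowest, median and highest). The fractions did not overlap, and Psmc5 fell by 1.05 (SE 0.16, limma adjusted p = 0.000431). Psmc3 had values of 8.32, 8.48 and 9.42 in CD34+ and 9.04, 9.14 and 9.30 in CD34- arrays. CD34+ array 4, at 9.42, lay above every CD34- array, and the other 5 CD34+ arrays lay below all of them. Psmc3 fell by 0.55 (limma adjusted p = 0.0243), a call lost without CD34+ array 1 or 5 or CD34- array 1 or 5 (adjusted p 0.0516 to 0.0591). Psmc1 (-0.33), Psmc2 (-0.20), Psmc4 (0.22) and Psmc6 (-0.20) did not pass, although Psmc1 passed without CD34+ array 1 or 4 (adjusted p = 0.0374 and 0.0494). Psmc4 had the widest spread of the 45 members over CD34+ arrays (SD 0.87) and was higher without arrays 1, 3 and 5 (0.92, limma adjusted p = 0.0113).

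With 12 arrays the non-ATPase subunits of the cap made up the class with the most falls, 6 of 11 genes and 0 higher. All 11 values were negative (median -0.52). Without CD34+ arrays 1, 3 and 5 the class did not stand out: 3 of the 11 fell and 0 rose (median -0.22). In that setting 3 of 8 beta ring genes fell and 1 rose, and 2 of 3 activators fell and 0 rose. Psmd7, which pairs with the deubiquitinase Psmd14, read 5.43, 6.33 and 6.88 in CD34+ arrays against 7.38, 7.42 and 7.97 in CD34- arrays (lowest, median and highest). No array overlapped (-1.22, SE 0.22, limma adjusted p = 0.00103). Psmd14, which cuts ubiquitin chains off the substrate, read 9.77, 10.09 and 10.23 in CD34+ and 10.35, 10.60 and 10.71 in CD34- arrays. It fell by 0.52 (SE 0.11, limma adjusted p = 0.00284), again with no overlap. Psmd13, a subunit of the lid, read 6.13, 6.76 and 8.12 in CD34+ and 7.64, 7.85 and 8.32 in CD34- arrays, with CD34+ array 4 within the CD34- range. It fell by 0.98 (limma adjusted p = 0.0142), but lost the call without CD34+ arrays 1, 3 and 5 (-0.52, adjusted p = 0.185) or by its brightest plain _at probe set (-0.44, adjusted p = 0.0810). That plain _at probe set was dim, with a mean of 4.57 over the 12 arrays against 7.40 for the chosen one.

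The scaffold subunits Psmd1 (-0.70, limma adjusted p = 0.00974) and Psmd2 (-0.74, adjusted p = 0.0414) and the lid subunit Psmd8 (-0.83, adjusted p = 0.0429) completed the 6. Psmd2 and Psmd8 were close to the threshold: for each, 8 of the 12 fits without 1 array made no call, with an adjusted p of 0.0569 to 0.0947 for Psmd2 and 0.0640 to 0.0980 for Psmd8. The arrays left out in those fits were CD34+ arrays 1, 3 and 5 and CD34- arrays 1, 4, 5 and 6 for both, with CD34- array 3 for Psmd2 and CD34- array 2 for Psmd8. Without CD34+ arrays 1, 3 and 5 together Psmd2 was at -0.22 and Psmd8 at -0.19, and neither passed (adjusted p = 0.501 and 0.483). Psmd1 was at -0.96 there (limma adjusted p = 0.00124), but did not pass after a further quantile normalization (-0.41, adjusted p = 0.243). The ubiquitin receptor Psmd4 (-0.39) and the lid subunits Psmd3 (-0.34), Psmd6 (-0.19), Psmd11 (-0.29) and Psmd12 (-0.41) did not pass. Without CD34+ array 4, Psmd3, Psmd4 and Psmd12 passed as lower (adjusted p = 0.0234, 0.00907 and 0.0168), and Psmd12 also without CD34+ array 2 (adjusted p = 0.0337).

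Activators open the gate of the core without the cap. Psme1, a subunit of the interferon-induced ring PA28, had values of 8.36, 8.69 and 9.04 in CD34+ and 9.07, 9.41 and 9.80 in CD34- arrays (lowest, median and highest). The fractions were apart by a narrow margin and Psme1 fell by 0.71 (SE 0.15, limma adjusted p = 0.00264). The probe set shared by its partner Psme2 and Psme2b averaged 8.67 ± 0.34 in CD34+ cells against 9.75 ± 0.22 in CD34- cells (SD, n = 6; -1.08, limma adjusted p = 0.000371 over all probe sets), and the signal of those genes cannot be told apart. Psme3, the nuclear activator, read 5.96, 6.85 and 7.31 in CD34+ and 6.92, 7.18 and 7.48 in CD34- arrays, with CD34+ array 4 the lowest by far. It did not pass (-0.42, limma adjusted p = 0.104), but did without CD34+ array 1 (adjusted p = 0.0489) and without CD34+ arrays 1, 3 and 5 (-0.66, adjusted p = 0.0372). Psme4, the large activator found in the nucleus and in sperm cells, read 8.87, 9.19 and 9.57 in CD34+ and 9.10, 9.43 and 9.87 in CD34- arrays and did not pass (-0.24, limma adjusted p = 0.253).

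Chaperones hold partly built proteasomes together and leave the finished particle. Of the 7 with symbols in the list 2 fell and 0 rose, and all 7 values were negative (median -0.38). Psmd10, or gankyrin, a chaperone of the ATPase ring, read 5.24, 5.78 and 6.18 in CD34+ arrays against 6.35, 6.74 and 7.04 in CD34- arrays (lowest, median and highest). The arrays did not overlap (-0.98, SE 0.17, limma adjusted p = 0.000988). Psmg1, which assembles the alpha ring, read 6.20, 6.64 and 7.11 in CD34+ and 7.01, 7.25 and 7.36 in CD34- arrays, with CD34+ array 4 inside the CD34- range. It fell by 0.57 (SE 0.13, limma adjusted p = 0.00665). The alpha ring chaperones Psmg2 (-0.20), Psmg3 (-0.38) and Psmg4 (-0.48) and the ATPase chaperones Psmd5 (-0.36) and Psmd9 (-0.33) did not pass. Psmg4 passed without CD34+ array 4 or CD34- array 6 (adjusted p = 0.0261 and 0.0270), by the means of arrays 1-2, 3-4 and 5-6 (adjusted p of 0.0360) and with each array centred on its median (adjusted p = 0.0431). Of the symbols that are not subunits, Psme3ip1 read 7.49, 8.09 and 8.397 in CD34+ and 8.44, 8.65 and 8.78 in CD34- arrays, with no overlap. It fell by 0.62 (limma adjusted p = 0.0121), and was at -0.28 without CD34+ arrays 1, 3 and 5 (adjusted p = 0.0757). Psmc3ip did not pass (-0.17).

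Which probe set stood for a gene mattered for several members. Of the 26 that did not pass, 19 had further probe sets, and for 11 of these another probe set was lower in CD34+ cells (limma adjusted p under 0.05 over all probe sets): 57.9%, against 19.4% of the 6283 genes on the array that had several probe sets and did not pass by the brightest. They were Psma6, Psmb3, Psmb4, Psmc2, Psmc6, Psmd4, Psmd6, Psmd11, Psme3, Psme4 and Psmg2. The 6283 genes were not matched to the members for level or for number of probe sets. The dimmer probe set of Psmc2 fell to 8.70 in CD34+, against 9.80 in CD34- arrays (-1.11, limma adjusted p = 2.66e-05), while the brighter one read 11.11 and 11.31 (-0.20, adjusted p = 0.339). Psmb4 was at 10.28 in CD34+ and 10.95 in CD34- arrays by its second probe set (-0.67, limma adjusted p = 0.00236), and at 11.12 and 10.995 by its brightest (0.12). Psmb3 was at -0.69 (limma adjusted p = 0.00531) by its second probe set and at 0.16 by its brightest. Psme3 (-1.28) and Psme4 (-0.76 and -1.11) also had further probe sets that fell.

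The opposite was seen as well. A second probe set of Psmb1, at 6.75 in CD34+ and 6.41 in CD34- arrays, was higher (0.33, limma adjusted p = 0.0117), as were further probe sets of Psmd9 (0.55 and 0.61) and Psmd11 (0.48). The probe set of Psmd9 at 0.61 reads close to the low end of the scale, at 3.32 in CD34+ and 2.70 in CD34- arrays. Psmd9 and Psmd11 were 2 of the 19 members that had further probe sets and did not pass, and 8.12% of the 6283 genes of that kind had a higher one. Psmd11 also had a probe set that fell (-1.29). By the suffix of the chosen probe set, 13 of 25 members with a plain _at suffix fell, as did 6 of 13 with _a_at and 0 of 7 with _x_at or _s_at, the suffixes Affymetrix gives to probe sets whose probes match further transcripts. Over all genes 17.2% fell with a plain _at suffix, 24.3% with _a_at and 18.2% with _x_at or _s_at, and among genes with a mean of 8 or more 36.6%, 26.8% and 20.4%, in the same order of suffixes. Reading each gene by its brightest plain _at probe set, where it had one, 23 of the 45 members fell and 2 rose (51.1% and 4.44%, against 19% and 7.92% of all genes), with a median of -0.53. For some members that probe set was far dimmer and may hold little signal. Its mean over the 12 arrays was 3.54 for Psma5 (brightest 10.76) and 4.14 for Psma3 (brightest 11.46). The part of cross-hybridisation in the differences between probe sets was not tested.

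**Figure D4:**
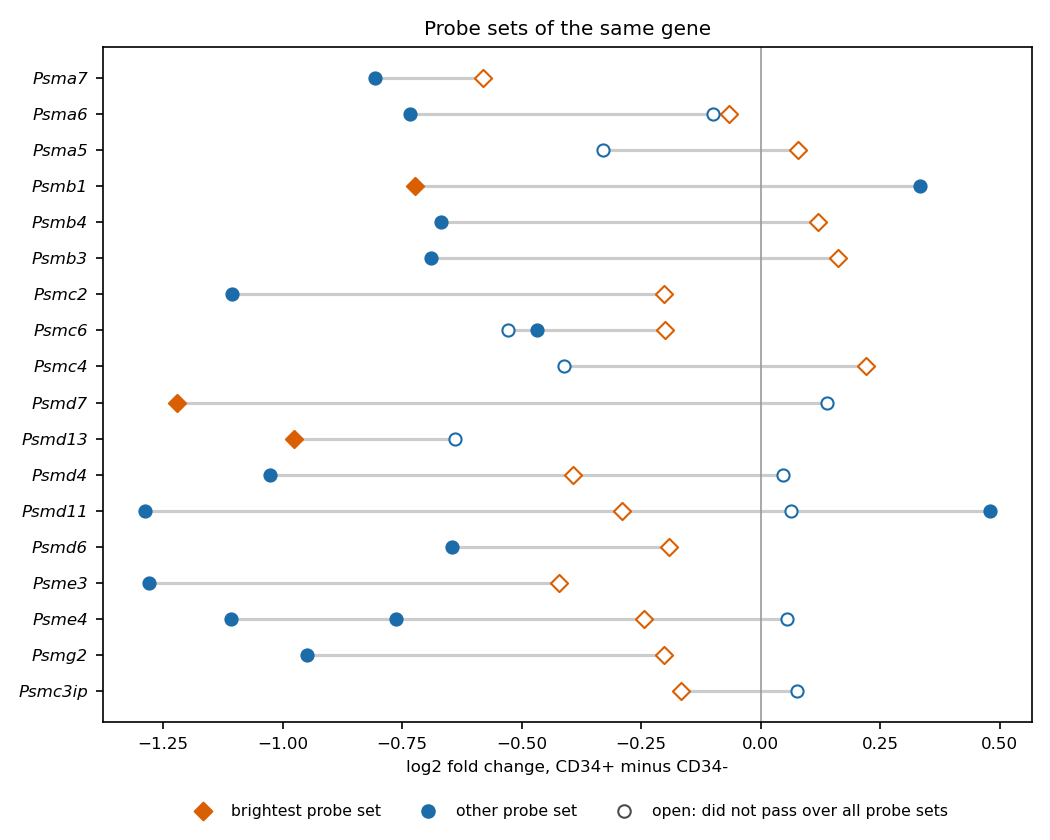
Log2 fold change (CD34+ minus CD34-) of every probe set with a mean of 5 or more, for the 18 genes of the list that have more than 1. Diamonds are the brightest probe set and circles the others, filled where they passed over all probe sets. The open diamond lies to the right of a filled circle for 12 genes, Psma7 and the 11 named above.

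In the lists of genes that work with the proteasome, every call made with 12 arrays was lower in CD34+ cells. Over all genes 18.1% were lower and 7.99% higher, and among genes with a mean of 8 or more 31.2% and 4.67%. The counts of these lists were not tested against those shares. Of 14 measured regulators 7 fell and 0 rose, with a median of -0.50. Nfe2l1, the factor that switches on proteasome genes, averaged 7.78 ± 0.20 in CD34+ cells against 8.44 ± 0.29 in CD34- cells (SD, n = 6), with arrays that did not overlap, and fell by 0.66 (limma adjusted p = 0.00361). It passed without CD34+ arrays 1, 3 and 5 too (-0.54, adjusted p = 0.0371). The stress factor Nfe2l2 (-0.80), the CCAAT-binding subunit Nfyb (-0.73), the partner protein Mafg (-0.73) and Ngly1 (-0.70), an enzyme that activates Nfe2l1, fell with 12 arrays, but without CD34+ arrays 1, 3 and 5 their adjusted p was 0.0939 to 0.166.

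Of 12 measured proteasome partners with other symbols 3 fell and 0 rose (median -0.27): the deubiquitinase Uchl5 (-0.77), Akirin2 (-0.66), which brings proteasomes into the nucleus, and the stress-induced Zfand2a (-0.60). The assembly factor Pomp (-0.38) and the cap subunit Sem1 (0.082) did not pass. Of 8 measured ubiquitin and conjugation genes 3 fell and 0 rose (median -0.37), the conjugating enzymes Ube2k (-0.67), Ube2n (-0.54) and Cdc34 (-0.35). Of 13 measured genes of the unfoldase p97 and of shuttles 7 fell and 0 rose, among them the autophagy receptor Sqstm1 (-1.25), the shuttles Ubqln1 (-1.03) and Rad23b (-0.87) and the p97 cofactor Nploc4 (-0.75). The median of this group was -0.56, and p97 itself, Vcp, did not pass (-0.68, limma adjusted p = 0.113).

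Cytosolic chaperones, which help proteins fold, had 7 of 15 genes lower and 0 higher with a median of -0.54, led by the chaperonin subunits Cct8 (-1.06), Cct7 (-0.94) and Tcp1 (-0.77) and by Hspa4 (-0.85). Antigen processing genes that interferon induces had 7 of 9 lower and 0 higher (median -0.92), with H2-D1 (-1.91), H2-K1 (-1.54), Erap1 (-1.12) and B2m (-0.99) lowest. All 11 measured proliferation genes fell (median -1.26), with Pcna (-1.84), Tk1 (-1.81), Top2a (-1.74) and Ube2c (-1.70) first. Without CD34+ arrays 1, 3 and 5, 4 proteasome partners fell (median -0.25), and of the ubiquitin and conjugation genes 1 fell and 1 rose, Ube2r2 at 0.84 (median -0.27). The medians without these arrays were -0.23 for regulators, -0.29 for p97 and shuttles, -0.27 for cytosolic chaperones, -0.45 for antigen processing and -1.07 for proliferation genes, with 1, 4, 5, 4 and 10 genes lower. In that setting 10.4% of all genes were lower and 8.81% higher. Among genes with a mean of 8 or more the shares were 15.9% and 12.6%.

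Across the settings tried, 3 of the 19 falls were called in all 23 alternatives: Psmb5, Psmb7 and Psmd7. Not all of these could change a call. Leaving out Psmc3ip and Psme3ip1 kept the adjusted p of the other genes. The settings that choose or average probe sets left the values of genes with 1 probe set, such as Psmb5 and Psmb7, as they were. Another 7 were called in all but the comparison of even-numbered arrays alone, 3 against 3, where 5 members fell and 0 rose and 3.44% of all genes rose: Psma1, Psma4, Psmc5, Psmd10, Psmd14, Psme1 and Psmg1.

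**Figure D5:**
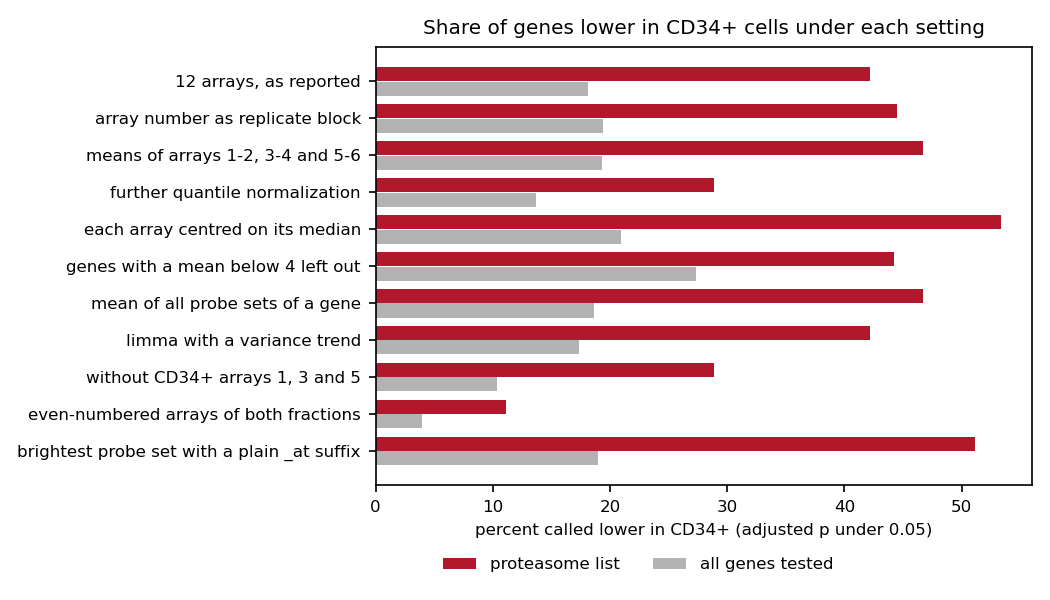
Percent of genes called lower in CD34+ cells (limma adjusted p under 0.05) for the proteasome list and for all genes tested, with 12 arrays and under 10 other settings. The share of the list was 42.2% with 12 arrays, 28.9% after a further quantile normalization and without CD34+ arrays 1, 3 and 5, and 11.1% on even-numbered arrays, against 18.1%, 13.7%, 10.4% and 3.99% of all genes.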

How the data were processed

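The deposited table holds log2 expression values per probe set for 12 arrays, which the authors made with RMA, as the submitters' processing notes say; the version and whether all arrays were normalized together are not given in the sources used here. RMA values carry no detection call. Of 45101 probe sets 64 controls were left out. The platform annotation, with symbols updated through RefSeq (GRCm38.p6), named 1 gene for 34945 probe sets and several for 932, with 9160 unnamed here, which gave 18193 genes, each read by its brightest probe set. Limma 3.58.1 under R 4.3.3 compared the fractions by lmFit and eBayes without a block, with p-values adjusted over all genes by Benjamini-Hochberg at a threshold of 0.05, and a further fit took all 45037 probe sets. The number of arrays limits the precision. Members, lists and settings were chosen with earlier results of these data known. Per array values are given for the catalytic subunits, the activators and the called members with the 2 largest changes of each class, and up to 4 called genes are named from each related list, with Nfe2l1 and Nfe2l2 in any case. Psmb2, Psmd14, Pomp, Sem1, Vcp and the members near the threshold were described beyond this rule after their values were seen.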

Additional observations from a re-analysis of the deposited data

Results flagged for a closer look

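A single array lay far from the other 5 of its group for 4 genes, by Dixon's test at the 95% level. In each case it was CD34+ array 4, at 9.02 for Psma4 (nearest other array 7.99), 9.67 for Psmb1 (8.77), 9.42 for Psmc3 (8.62) and 5.96 for Psme3 (6.81). It was the highest array for Psma4, Psmb1 and Psmc3 and the lowest for Psme3. Of the 90 groups tested 4 stood out, and chance gives about 1 in 20.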

How the results depend on the processing

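The median of the list stayed negative under all 23 alternatives, not all of which could change it. The replicate block, the means of arrays 1-2, 3-4 and 5-6 and the variance trend leave the fold changes as they were. Members lower in CD34+ cells numbered 19, and 14 to 24 on leaving out single arrays (14 without CD34+ array 5 or CD34- array 5, 24 without CD34+ array 4), where the median was -0.47 to -0.34 and 0 members were higher. On even-numbered arrays alone, chosen after the data were seen, 5 were lower. Members higher numbered 0 with 12 arrays, 3 after a further quantile normalization (Psma5, Psmb3 and Psmb4), 2 without CD34+ arrays 1, 3 and 5 (Psmb3 and Psmc4) and 2 by the brightest plain _at probe set, also chosen after the data were seen. There the values changed sign and passed for Psmb1 (0.33), Psmb3 (-0.69), Psmb4 (-0.67) and Psmd11 (0.48), and changed sign without passing for Psmc4 (-0.41) and Psmc3ip (0.077); the cause was not tested. Centring each array on its median shifted the median of all genes from 0.040 to -0.062; relative to it the list was at -0.43 either way, with 24 members lower. The list was at -0.16 relative to all genes after quantile normalization and at -0.19 without the 3 arrays. With array number as a replicate block 20 members were lower, Psmg4 being added (adjusted p = 0.0375), and with means of arrays 1-2, 3-4 and 5-6, 21, with Psmd12 and Psmg4 added. The numbers were not taken to pair the arrays, since the labels do not say so and not every correlation was above 0.1: deviations of same-numbered arrays correlated at -0.27 to 0.50, positively for 4 of 6 numbers, and 3 of 6 CD34+ arrays correlated best with their own number, which leaves the pairing undecided. Leaving out genes with a mean below 4 or letting the variance follow the level gave 19 lower members each, and the mean of all probe sets 21.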
